A study of Mus musculus with 12 samples.

Results

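The autophagy machinery was taken as 37 genes: the ULK1 initiation complex, the class III phosphatidylinositol 3-kinase (PI3K) complex, the proteins that supply membrane, the conjugation enzymes, the ATG4 proteases, the ATG8 family and the cargo receptors. The rule used gene symbols, not measured values, but earlier results of these data were known when the members were chosen. All 37 were found among the 55487 genes of the count and TPM tables, and all 37 were among the 15801 genes that passed the filter on low counts. The cells were primary mouse macrophages grown from bone marrow in macrophage colony-stimulating factor. They came from Fes-/- mice, which lack an intact copy of the cytoplasmic tyrosine kinase gene Fes, or from Fes+/+ mice (wild type). The 4 groups were Fes-/- with LPS, Fes-/- with PBS, wild type with LPS and wild type with PBS, with 3 libraries each. LPS, a component of the outer membrane of Gram-negative bacteria that is sensed through TLR4, was given at 1 µg/mL for 4 hours. The label PBS marks cells that the treatment description calls untreated. Age, sex and strain of the mice are not given in the labels. The series names 3 mice of each genotype for 6 libraries of each. The replicates are labelled as biological, but which mouse gave which library is not stated, so the p-values measure the spread between these libraries.

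Macroautophagy encloses cytoplasm in a double membrane, the autophagosome, which then fuses with lysosomes. The ULK1 kinase complex starts the process, the PI3K complex marks the site with phosphatidylinositol 3-phosphate, and the ATG12-ATG5-ATG16L1 complex attaches ATG8 proteins (the LC3 and GABARAP proteins) to membrane lipid. Cargo receptors bind ubiquitin-coated cargo and ATG8 proteins at once. In macrophages the pathway captures bacteria and damaged mitochondria, and part of the conjugation machinery also acts on phagosomes. Transcript levels do not measure autophagic flux.

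The libraries held 61016254 to 101027166 counts each, and all 12 carried 1 batch label. Fes averaged 33.8 ± 1.16 CPM in Fes-/- LPS libraries, 68.6 ± 2.05 CPM in Fes-/- PBS libraries, 162 ± 9.77 CPM in wild-type LPS libraries and 179 ± 10.2 CPM in wild-type PBS libraries (mean ± SD, n = 3), so reads of the locus remained in Fes-/- cells. CPM here is a count scaled to a common library size with trimmed-mean (TMM) factors. The 8 macrophage markers summed to 10412 to 15478 CPM in every library, and 7 inflammatory LPS target genes summed to 27062 to 34839 CPM under LPS and 7.25 to 24.3 CPM under PBS. Summed markers of neutrophils were at most 8.05 CPM, of T cells 7.01 CPM, of dendritic cells 2.28 CPM, of stromal cells 1.61 CPM, of B cells 0.777 CPM, of erythroid cells 0.156 CPM and of mast cells 0.0136 CPM in any library, and no marker was at 0 in all libraries. In bulk RNA, fewer cells and less RNA per cell cannot be told apart. LPS libraries had a different make-up: their 100 most abundant genes held 28 to 28.6% of counts, against 19.9 to 21.8% in PBS libraries. TMM factors were 0.707 to 0.737 in LPS libraries and 1.35 to 1.4 in PBS libraries. With library totals as the only scaling, the median log2 LPS effect of all tested genes moved by -0.932 in Fes-/- and by -0.911 in wild type. LPS effects are therefore given under TMM and named as scaling-dependent where library totals or TPM (a transcript level scaled by gene length) change the call.

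The first question was how the autophagy genes responded to LPS within each genotype. The receptors Optn, Tax1bp1 and Sqstm1 and the conjugation scaffold gene Atg16l1 rose 2.5- to 5.02-fold, whereas the receptor Nbr1, the initiating kinase gene Ulk1 and the protease gene Atg4c fell to 18.5 to 24.4% of their PBS level. All 5 initiation genes and 22 of the 37 members in all were lower under LPS in both genotypes, whichever scaling was used, against 34% of all tested genes. Under TMM, LPS changed 34 of 37 members in each genotype (91.9%), against 73.2% of all tested genes in Fes-/- and 73.4% in wild type (edgeR quasi-likelihood test, Benjamini-Hochberg adjusted p under 0.05). Among genes at least as abundant as the lowest member the background was 80.6% in Fes-/- and 81.1% in wild type. In each genotype 11 members were higher under TMM, of which 4 were also higher with library totals, against 34.3% of all genes in Fes-/- and 34.6% in wild type. In each genotype 23 members were lower, against 38.9% of all genes in Fes-/- and 38.8% in wild type. All 23 were also lower with library totals, which lower every LPS effect by construction, so this is no check on the falls. The same 34 genes passed in both genotypes, each in the same direction. The members' median log2 change was -0.392 in Fes-/- and -0.472 in wild type, against -0.0825 and -0.0715 for all tested genes in those genotypes. The median size of the change, without its sign, was 0.856 for members and 0.856 for all genes in Fes-/-, and 0.873 for members and 0.879 for all genes in wild type.

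The balance of rises and falls depended on the scaling. Library totals and TPM put LPS effects lower than TMM does. A fall under TMM therefore carries over to them, whereas a rise does so only if it exceeds the shift. With library totals, and also with TPM, 4 members were higher, 31 were lower and 2 were not called in each genotype. With library totals the test called 85.9% of all genes in Fes-/- and 84.8% in wild type, with 15.9% higher and 70% lower in Fes-/-, and 16.3% higher and 68.5% lower in wild type. Optn, Tax1bp1, Sqstm1 and Atg16l1 were the 4 members higher under every scaling in both genotypes, against 14.5% of all tested genes. The 22 members lower under every scaling in both genotypes were Ulk1, Ulk2, Rb1cc1, Atg13, Atg101, Pik3c3, Pik3r4, Atg14, Uvrag, Wipi1, Wipi2, Atg2a, Atg2b, Atg5, Atg7, Atg12, Atg16l2, Atg4c, Map1lc3b, Gabarapl1, Nbr1 and Calcoco1. Becn1, Ambra1, Atg9a, Atg3, Atg4a, Atg4d and Gabarapl2 were higher with TMM, RLE and DESeq2 factors, but with library totals or TPM they were lower or not called. The LPS and PBS libraries did not overlap for 34 members in Fes-/- (77.2% of all genes) and for 35 in wild type (75.3% of all genes).

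**Figure D1:**
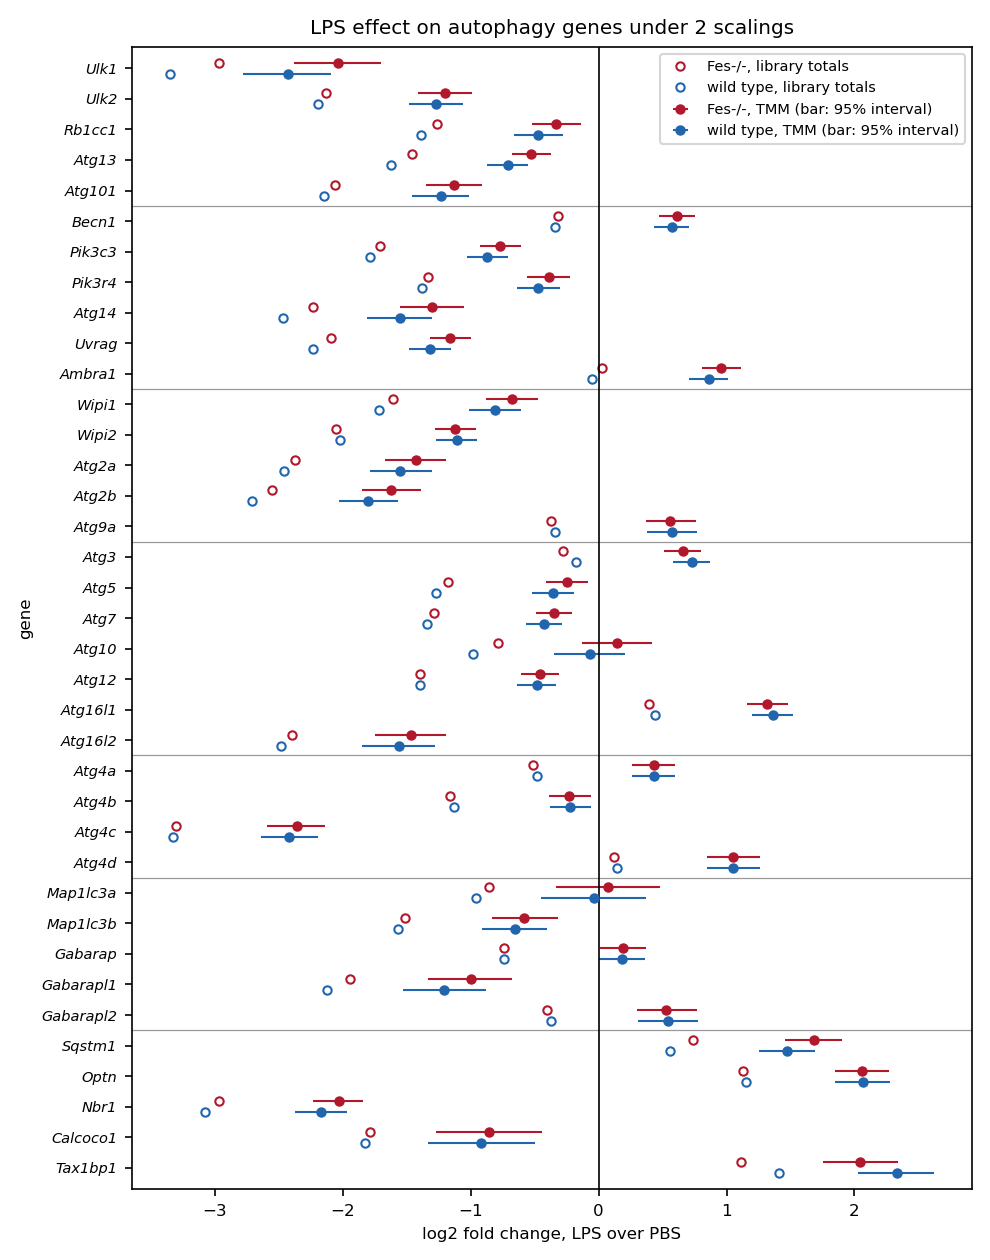
Log2 fold change of LPS over PBS (x axis) for each of the 37 autophagy genes (y axis), in Fes-/- and in wild type. Filled points with 95% intervals use TMM and open points use library totals, which lie to the left. Optn, Tax1bp1, Sqstm1 and Atg16l1 stay clearly right of 0 under both, and Ambra1 and Atg4d lie close to 0 under library totals.

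The cargo receptors split widely, with 3 of 5 higher and 2 of 5 lower under LPS in both genotypes under every scaling. Optn lies on GRCm38 chromosome 2, 5020642 to 5064051, minus strand, Tax1bp1 on chromosome 6, 52713729 to 52766780, plus strand, Sqstm1 on chromosome 11, 50199366 to 50210827, minus strand and Nbr1 on chromosome 11, 101552149 to 101581951, plus strand. Optn, an adaptor that recognises ubiquitin on bacteria and mitochondria and binds ATG8 proteins, had 61.1, 58.2 and 66.1 CPM under LPS and 15, 13.4 and 16 CPM under PBS in Fes-/- libraries. Wild-type values for Optn were 54, 65.1 and 59.7 CPM under LPS and 15.5, 14.3 and 12.9 CPM under PBS. Optn rose 4.17-fold in Fes-/- (log2 2.06 ± 0.10, SE, adjusted p = 7.57e-11) and 4.19-fold in wild type (2.07 ± 0.10, adjusted p = 7.55e-11). Tax1bp1, a ubiquitin-binding receptor that also restrains NF-kappaB signalling, had 599.7, 502 and 717 CPM under LPS and 143, 156 and 143 CPM under PBS in Fes-/- libraries. Wild-type values for Tax1bp1 were 643, 892 and 671 CPM under LPS and 138, 151 and 150.3 CPM under PBS. Tax1bp1 rose 4.12-fold in Fes-/- (log2 2.04 ± 0.14, SE, adjusted p = 3.91e-09) and 5.02-fold in wild type (2.33 ± 0.14, adjusted p = 9.81e-10). LPS libraries differed among themselves in Tax1bp1, with replicate 2 the lowest in Fes-/- and the highest in wild type. Sqstm1, the gene of p62, the classical receptor for ubiquitin-coated aggregates and an activator of the NRF2 pathway, had 1152, 1198 and 1108 CPM under LPS and 362, 329 and 389 CPM under PBS in Fes-/- libraries. Wild-type values for Sqstm1 were 1136, 886 and 1034 CPM under LPS and 336, 376 and 389 CPM under PBS. Sqstm1 rose 3.2-fold in Fes-/- (log2 1.68 ± 0.10, SE, adjusted p = 1.27e-09) and 2.78-fold in wild type (1.47 ± 0.10, adjusted p = 5.38e-09). For all 3 genes every LPS library lay above every PBS library of its genotype. With library totals the 3 rises were 1.13, 1.11 and 0.74 on the log2 scale in Fes-/-, and 1.15, 1.41 and 0.56 in wild type for Optn, Tax1bp1 and Sqstm1.

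Nbr1 and Calcoco1 moved the other way. Nbr1, a p62-like receptor of ubiquitin-coated cargo and peroxisomes, had 27.4, 29.2 and 29.1 CPM under LPS and 118, 106 and 126 CPM under PBS in Fes-/- libraries. Wild-type values for Nbr1 were 30.1, 28.7 and 27.5 CPM under LPS and 124, 146 and 119 CPM under PBS. Nbr1 fell to 24.4% of its PBS level in Fes-/- (log2 -2.03 ± 0.09, adjusted p = 3.22e-11) and to 22.2% in wild type (-2.17 ± 0.09, adjusted p = 1.68e-11). Calcoco1, a receptor for parts of the endoplasmic reticulum and Golgi, had 25.6, 21.1 and 28.9 CPM under LPS and 44, 39.1 and 53.8 CPM under PBS in Fes-/- libraries. Wild-type values for Calcoco1 were 27, 36.1 and 25.8 CPM under LPS and 45.3, 71.2 and 51.3 CPM under PBS. Calcoco1 fell to 55.2% of its PBS level in Fes-/- (log2 -0.86 ± 0.19, adjusted p = 0.00139) and to 53% in wild type (-0.92 ± 0.19, adjusted p = 0.000849). Every LPS library lay below every PBS library of its genotype for both genes, and wild-type PBS replicate 2 was the highest Calcoco1 library. The ratio of Optn to Nbr1 was 17.1-fold higher under LPS than under PBS in Fes-/- and 18.8-fold higher in wild type, a quantity that library scaling cannot move. The ratio of Sqstm1 to Nbr1 was 13.1-fold higher in Fes-/- and 12.5-fold higher in wild type.

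**Figure D2:**
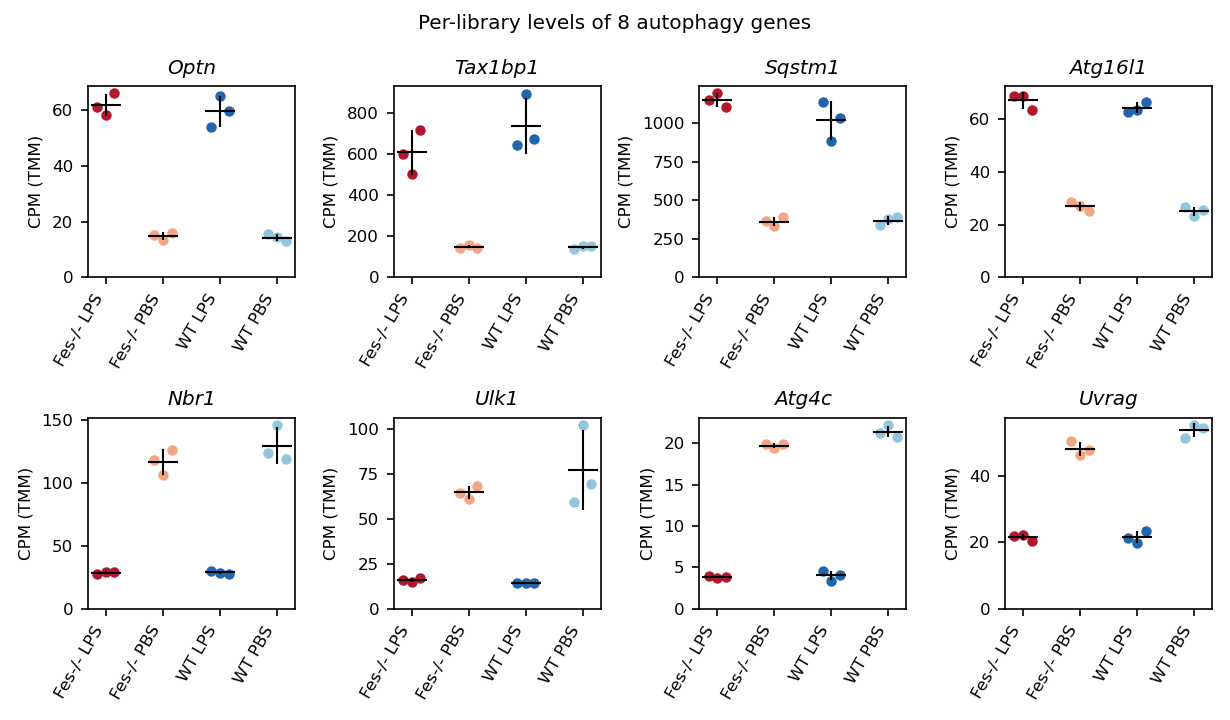
TMM-scaled CPM (y axis, from 0) in each of the 12 libraries for 8 genes, with the groups Fes-/- LPS, Fes-/- PBS, wild-type LPS and wild-type PBS on the x axis. Points are libraries, horizontal ticks are group means and vertical bars are SDs. LPS libraries lie above PBS libraries in Optn, Tax1bp1, Sqstm1 and Atg16l1 and below them in Nbr1, Ulk1, Atg4c and Uvrag, and the highest Ulk1 library is wild-type PBS replicate 2 at 102 CPM.

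Promoter windows of 300 bases, 250 before and 50 after an annotated start, were read from RefSeq sequences of GRCm38.p6, which held 31 of the 37 members with 35 windows. They are shown for the 3 receptor genes that rose and for Nbr1 and Ulk1, which fell. The windows are Optn chr2:5064068-5064367 (minus strand), Sqstm1 chr11:50210771-50211070 (minus strand), Tax1bp1 chr6:52713479-52713778 (plus strand) and chr6:52713915-52714214 (plus strand), Nbr1 chr11:101551857-101552156 (plus strand) and Ulk1 chr5:110810032-110810331 (minus strand). Capitals mark matches on either strand to 4 motifs, which may overlap: the E-box core CACGTG, the antioxidant response element core TGACNNNGC, the AP-1 motif TGANTCA and a kappaB-like motif (3 G, any 5 bases, 2 C).
Optn promoter: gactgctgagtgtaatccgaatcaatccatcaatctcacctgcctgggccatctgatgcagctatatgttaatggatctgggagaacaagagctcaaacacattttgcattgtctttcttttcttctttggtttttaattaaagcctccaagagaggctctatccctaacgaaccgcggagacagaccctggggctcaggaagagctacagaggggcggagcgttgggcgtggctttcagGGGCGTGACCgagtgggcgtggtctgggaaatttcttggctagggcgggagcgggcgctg
Sqstm1 promoter: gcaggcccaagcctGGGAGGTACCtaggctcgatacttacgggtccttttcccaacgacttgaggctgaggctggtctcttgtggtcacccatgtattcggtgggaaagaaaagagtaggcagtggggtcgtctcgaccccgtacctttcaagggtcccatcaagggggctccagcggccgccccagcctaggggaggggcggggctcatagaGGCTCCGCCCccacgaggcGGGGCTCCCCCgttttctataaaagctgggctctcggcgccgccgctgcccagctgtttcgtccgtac
Tax1bp1 promoter, first start: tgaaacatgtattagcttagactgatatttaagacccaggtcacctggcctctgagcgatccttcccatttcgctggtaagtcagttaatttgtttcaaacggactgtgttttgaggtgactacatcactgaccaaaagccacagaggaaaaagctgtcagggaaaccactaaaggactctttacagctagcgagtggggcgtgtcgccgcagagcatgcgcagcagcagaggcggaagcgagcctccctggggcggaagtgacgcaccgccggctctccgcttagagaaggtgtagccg
Tax1bp1 promoter, next start: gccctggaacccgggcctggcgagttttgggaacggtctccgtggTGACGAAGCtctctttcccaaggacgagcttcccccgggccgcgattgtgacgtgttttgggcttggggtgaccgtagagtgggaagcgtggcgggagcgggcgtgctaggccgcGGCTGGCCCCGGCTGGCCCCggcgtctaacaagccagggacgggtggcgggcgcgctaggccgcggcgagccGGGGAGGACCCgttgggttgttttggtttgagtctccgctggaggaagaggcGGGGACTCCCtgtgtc
Nbr1 promoter: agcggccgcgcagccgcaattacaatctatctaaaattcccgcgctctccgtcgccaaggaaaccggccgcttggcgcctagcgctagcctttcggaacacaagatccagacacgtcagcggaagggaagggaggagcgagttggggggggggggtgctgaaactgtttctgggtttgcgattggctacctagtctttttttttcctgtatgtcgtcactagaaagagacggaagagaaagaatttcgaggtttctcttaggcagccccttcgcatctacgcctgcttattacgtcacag
Ulk1 promoter: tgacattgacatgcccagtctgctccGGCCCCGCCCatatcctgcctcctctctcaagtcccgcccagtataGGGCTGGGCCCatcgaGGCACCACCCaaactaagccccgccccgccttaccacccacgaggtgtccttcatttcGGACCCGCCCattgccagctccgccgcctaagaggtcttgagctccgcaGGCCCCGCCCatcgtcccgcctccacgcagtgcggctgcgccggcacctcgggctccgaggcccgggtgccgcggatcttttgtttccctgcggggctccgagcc
The kappaB-like letters occurred in 20 of the 35 member windows (57.1%) and in 50.8% of all 32851 promoter windows. TGACNNNGC occurred in 4 member windows (11.4%, in Atg13, Map1lc3b, Tax1bp1 and Ulk2) and in 12.4% of all windows. CACGTG occurred in 4 member windows (11.4%, in Atg14, Atg3, Atg5 and Atg7) and in 7.15% of all windows, and TGANTCA in 0 member windows and 7.81% of all windows. Neither of the Nbr1 windows, of which the upstream one is printed, nor the first Tax1bp1 window held a match. A match to so short a motif is a description of the letters only.

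All 5 genes of the initiation complex fell under LPS in both genotypes and under every scaling. Their LPS and PBS libraries did not overlap, nor did those of 77.2% of all genes in Fes-/- and 75.3% in wild type. Ulk1, the kinase that starts autophagosome formation when nutrients are short, had 15.7, 14.6 and 16.9 CPM under LPS and 64.4, 61.1 and 68.5 CPM under PBS in Fes-/- libraries. Wild-type values for Ulk1 were 14.2, 14 and 14.5 CPM under LPS and 59.5, 102 and 69.6 CPM under PBS. Ulk1 fell to 24.3% of its PBS level in Fes-/- (log2 -2.04 ± 0.16, adjusted p = 3.82e-08) and to 18.5% in wild type (-2.43 ± 0.16, adjusted p = 7.13e-09). Ulk2, its close relative, had 36.6, 33.5 and 41.9 CPM under LPS and 84.6, 79.1 and 93.5 CPM under PBS in Fes-/- libraries. Wild-type values for Ulk2 were 41.7, 39.9 and 38.1 CPM under LPS and 97.6, 105 and 86.7 CPM under PBS. Ulk2 fell to 43.5% of its PBS level in Fes-/- (log2 -1.20 ± 0.10, adjusted p = 2.96e-08) and to 41.4% in wild type (-1.27 ± 0.10, adjusted p = 1.57e-08). Atg101, which holds the complex together with ATG13, had 9.61, 10.3 and 10.5 CPM under LPS and 22, 19.5 and 24.9 CPM under PBS in Fes-/- libraries. Wild-type values for Atg101 were 9.83, 8.72 and 10.1 CPM under LPS and 22.2, 21.2 and 24 CPM under PBS. Atg101 fell to 45.7% of its PBS level in Fes-/- (log2 -1.13 ± 0.10, adjusted p = 1.06e-07) and to 42.5% in wild type (-1.23 ± 0.10, adjusted p = 4.21e-08). Atg13, the adaptor between the ULK kinases and FIP200, had 30.5, 33.6 and 29.9 CPM under LPS and 47.4, 42.9 and 45.2 CPM under PBS in Fes-/- libraries. Wild-type values for Atg13 were 30.5, 29.5 and 28.3 CPM under LPS and 46.6, 50.9 and 47 CPM under PBS. Atg13 fell to 69.4% of its PBS level in Fes-/- (log2 -0.53 ± 0.07, adjusted p = 1.13e-05) and to 61.1% in wild type (-0.71 ± 0.07, adjusted p = 4.67e-07). Rb1cc1, the gene of the scaffold FIP200, averaged 38.9 ± 2.41 CPM under LPS and 48.8 ± 1.39 CPM under PBS in Fes-/-, and 39.1 ± 2.74 CPM under LPS and 54.2 ± 6.61 CPM under PBS in wild type. Rb1cc1 fell by 0.33 ± 0.09 on the log2 scale in Fes-/- and fell by 0.47 ± 0.09 in wild type. Ulk1 lies on GRCm38 chromosome 5, 110784488 to 110810097, minus strand. The share of Ulk1 in the summed ULK TPM was 28.0% ± 0.85 under LPS and 41.0% ± 0.67 under PBS in Fes-/-, and 24.8% ± 1.0 under LPS and 41.9% ± 5.6 under PBS in wild type (mean ± SD, n = 3).

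Of the 6 PI3K complex genes, 4 fell under every scaling, and Becn1 and Ambra1 were higher with TMM but not with library totals. LPS and PBS libraries of all 6 did not overlap in either genotype, nor did those of 77.2% of all genes in Fes-/- and 75.3% in wild type. Atg14, the subunit that directs the kinase to autophagosome formation, had 8.83, 7.98 and 7.36 CPM under LPS and 21.3, 16.7 and 21.6 CPM under PBS in Fes-/- libraries. Wild-type values for Atg14 were 7.88, 7.36 and 7.65 CPM under LPS and 19.7, 23.9 and 23.6 CPM under PBS. Atg14 fell to 40.7% of its PBS level in Fes-/- (log2 -1.30 ± 0.12, adjusted p = 1.07e-07) and to 34% in wild type (-1.55 ± 0.12, adjusted p = 1.59e-08). Uvrag, the subunit that replaces ATG14 on late endosomes, had 21.9, 22.3 and 20.5 CPM under LPS and 50.5, 46.4 and 47.7 CPM under PBS in Fes-/- libraries. Wild-type values for Uvrag were 21.4, 19.8 and 23.4 CPM under LPS and 51.3, 55.3 and 54.4 CPM under PBS. Uvrag fell to 44.7% of its PBS level in Fes-/- (log2 -1.16 ± 0.08, adjusted p = 2.84e-09) and to 40.2% in wild type (-1.32 ± 0.08, adjusted p = 7.24e-10). Pik3c3, the catalytic subunit VPS34, had 22.6, 21.7 and 23.5 CPM under LPS and 38.3, 37.5 and 40 CPM under PBS in Fes-/- libraries. Wild-type values for Pik3c3 were 21.3, 20.5 and 24 CPM under LPS and 38.6, 41 and 41 CPM under PBS. Pik3c3 fell to 58.6% of its PBS level in Fes-/- (log2 -0.77 ± 0.08, adjusted p = 2.27e-07) and to 54.6% in wild type (-0.87 ± 0.08, adjusted p = 5.92e-08). Pik3r4, the gene of the regulatory subunit VPS15, averaged 29.1 ± 2 CPM under LPS and 38.2 ± 1.56 CPM under PBS in Fes-/-, and 29.4 ± 0.898 CPM under LPS and 40.7 ± 3.52 CPM under PBS in wild type. Pik3r4 fell by 0.39 ± 0.08 on the log2 scale in Fes-/- and fell by 0.47 ± 0.08 in wild type.

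Becn1, the gene of Beclin 1, the shared partner of ATG14 and UVRAG, had 108, 109.7 and 103 CPM under LPS and 70.9, 66.1 and 73.1 CPM under PBS in Fes-/- libraries. Wild-type values for Becn1 were 106, 112 and 111 CPM under LPS and 72.5, 73.6 and 75.3 CPM under PBS. Becn1 was 1.53-fold higher in Fes-/- (log2 0.61 ± 0.07, adjusted p = 6.51e-07) and 1.48-fold higher in wild type (0.57 ± 0.07, adjusted p = 1.37e-06) under TMM, but with library totals it was lower, at -0.32 in Fes-/- and -0.34 in wild type. Ambra1, a Beclin 1 partner and ubiquitin ligase adaptor, had 88.3, 94 and 94.9 CPM under LPS and 46.5, 49.8 and 46.1 CPM under PBS in Fes-/- libraries. Wild-type values for Ambra1 were 84, 91.3 and 89.4 CPM under LPS and 48.8, 51 and 46.2 CPM under PBS. Ambra1 was 1.95-fold higher in Fes-/- (log2 0.96 ± 0.07, adjusted p = 7.13e-09) and 1.81-fold higher in wild type (0.86 ± 0.07, adjusted p = 2.56e-08) under TMM, and was not called with library totals (0.03 in Fes-/- and -0.05 in wild type). The ratio of Becn1 to Atg14, which needs no library scaling, was 3.75-fold higher under LPS in Fes-/- and 4.36-fold higher in wild type. The antisense partner Gm45187 covers 17.6% of the exonic bases of Uvrag with counts at 0.0172% of its own. The Cntd1 transcript lies antisense to 43.9% of the exonic bases of Becn1, with counts at 2.16% of those of Becn1.

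Among the 5 genes of membrane supply and phosphatidylinositol 3-phosphate binding, 4 fell under every scaling. Their LPS and PBS libraries were apart in both genotypes, as were those of 77.2% of all genes in Fes-/- and 75.3% in wild type. Atg2b, a lipid-transfer protein that feeds the growing membrane, had 9.83, 9.77 and 10.2 CPM under LPS and 32.2, 30.9 and 28.4 CPM under PBS in Fes-/- libraries. Wild-type values for Atg2b were 10.4, 7.57 and 8.1 CPM under LPS and 30.2, 31.8 and 28.7 CPM under PBS. Atg2b fell to 32.6% of its PBS level in Fes-/- (log2 -1.62 ± 0.11, adjusted p = 2.64e-09) and to 28.7% in wild type (-1.80 ± 0.11, adjusted p = 9.29e-10). Atg2a, its relative of the same function, had 20.8, 19.5 and 23.1 CPM under LPS and 58.2, 53.7 and 58.9 CPM under PBS in Fes-/- libraries. Wild-type values for Atg2a were 19.2, 22.2 and 21.9 CPM under LPS and 52.1, 73.3 and 59.8 CPM under PBS. Atg2a fell to 37.1% of its PBS level in Fes-/- (log2 -1.43 ± 0.11, adjusted p = 2.16e-08) and to 34.2% in wild type (-1.55 ± 0.11, adjusted p = 9.41e-09). Wipi2, which binds the lipid mark and recruits ATG16L1, had 23.7, 22.4 and 23.7 CPM under LPS and 51.5, 47.5 and 52.5 CPM under PBS in Fes-/- libraries. Wild-type values for Wipi2 were 23.9, 26.1 and 25.6 CPM under LPS and 50.5, 58.1 and 54.4 CPM under PBS. Wipi2 fell to 46.1% of its PBS level in Fes-/- (log2 -1.12 ± 0.08, adjusted p = 3.24e-09) and to 46.4% in wild type (-1.11 ± 0.08, adjusted p = 3.66e-09). Wipi1, another reader of the lipid mark, had 13.9, 13.8 and 13.9 CPM under LPS and 20.6, 21.2 and 24.5 CPM under PBS in Fes-/- libraries. Wild-type values for Wipi1 were 13, 13.6 and 13.3 CPM under LPS and 23.8, 25.6 and 20.7 CPM under PBS. Wipi1 fell to 62.6% of its PBS level in Fes-/- (log2 -0.68 ± 0.09, adjusted p = 1.11e-05) and to 57% in wild type (-0.81 ± 0.09, adjusted p = 1.67e-06). Atg9a, the gene of the lipid scramblase on the vesicles that seed the membrane, was higher by 0.56 ± 0.09 in Fes-/- and 0.57 ± 0.09 in wild type under TMM, but lower with library totals, at -0.37 in Fes-/- and -0.34 in wild type (log2). Its level was 39.6 ± 1.5 CPM under LPS and 26.8 ± 1.42 CPM under PBS in Fes-/-, and 39.2 ± 5.2 CPM under LPS and 26.4 ± 1.34 CPM under PBS in wild type. The counts of Gskip, which shares 2.8% of the exonic bases of Atg2b, were 78.4% of those of Atg2b.

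Of the 7 conjugation genes, Atg16l1 was the 1 higher under every scaling, and Atg16l2, Atg5, Atg7 and Atg12 were lower under every scaling. Atg16l1 lies on GRCm38 chromosome 1, 87755870 to 87792428, plus strand, and LPS and PBS libraries were apart for it and for Atg16l2 in both genotypes. Atg16l1, the scaffold that sets where ATG8 proteins are attached, had 69.1, 69 and 63.6 CPM under LPS and 28.5, 27 and 25.2 CPM under PBS in Fes-/- libraries. Wild-type values for Atg16l1 were 63, 63.6 and 66.8 CPM under LPS and 26.6, 23.3 and 25.5 CPM under PBS. Atg16l1 rose 2.5-fold in Fes-/- (log2 1.32 ± 0.08, SE, adjusted p = 4.95e-10) and 2.56-fold in wild type (1.36 ± 0.08, adjusted p = 3.7e-10), and by 0.39 in Fes-/- and 0.44 in wild type on the log2 scale with library totals. Atg16l2, a paralog with a less well defined role, had 7.2, 5.58 and 4.95 CPM under LPS and 17.7, 15.1 and 16.5 CPM under PBS in Fes-/- libraries. Wild-type values for Atg16l2 were 4.87, 5.32 and 5.78 CPM under LPS and 14.9, 15.7 and 16.7 CPM under PBS. Atg16l2 fell to 36.1% of its PBS level in Fes-/- (log2 -1.47 ± 0.13, adjusted p = 7.82e-08) and to 33.8% in wild type (-1.56 ± 0.13, adjusted p = 4.51e-08). Fes-/- LPS replicate 1 was the highest of the LPS libraries for Atg16l2. Of the summed TPM of the pair, Atg16l1 held 91.0% ± 1.3 under LPS and 59.0% ± 2.0 under PBS in Fes-/-, and 91.4% ± 0.45 under LPS and 58.4% ± 2.4 under PBS in wild type.

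Atg3, the E2-like enzyme that passes ATG8 proteins to lipid, had 88.1, 89.7 and 88.3 CPM under LPS and 51.4, 60 and 57.4 CPM under PBS in Fes-/- libraries. Wild-type values for Atg3 were 90.8, 89.8 and 94.3 CPM under LPS and 54.7, 54.6 and 56.7 CPM under PBS. Atg3 was 1.58-fold higher in Fes-/- (log2 0.66 ± 0.07) and 1.66-fold higher in wild type (0.73 ± 0.07) under TMM, but lower with library totals, at -0.28 in Fes-/- and -0.18 in wild type. Atg7, the E1-like activating enzyme, fell by 0.35 ± 0.07 in Fes-/- and fell by 0.43 ± 0.07 in wild type on the log2 scale. Atg12, the ubiquitin-like protein joined to ATG5, fell by 0.46 ± 0.07 in Fes-/- and fell by 0.48 ± 0.07 in wild type. Atg5 fell by 0.25 ± 0.08 in Fes-/- (adjusted p = 0.00964, and 0.0612 without Fes-/- PBS replicate 3) and fell by 0.36 ± 0.08 in wild type. Atg10, the E2-like enzyme of the ATG12 step, did not pass under TMM, at 0.14 ± 0.13 in Fes-/- and -0.07 ± 0.13 in wild type, and was lower with library totals, at -0.79 and -0.98 in those genotypes. These 4 genes averaged 48.2 ± 1.86, 39.1 ± 1.69, 23.9 ± 0.894 and 7.71 ± 0.258 CPM in Fes-/- LPS libraries, for Atg7, Atg12, Atg5 and Atg10.

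The ATG4 proteases, which trim ATG8 proteins before conjugation and release them from lipid afterwards, shifted relative to each other. Atg4c lies on GRCm38 chromosome 4, 99193934 to 99259787, plus strand, and LPS libraries of Atg4c and Atg4d did not overlap with PBS libraries. Atg4c, the member with the largest fall in Fes-/- and the next largest after Ulk1 in wild type, had 3.91, 3.76 and 3.83 CPM under LPS and 19.9, 19.4 and 19.9 CPM under PBS in Fes-/- libraries. Wild-type values for Atg4c were 4.58, 3.38 and 4.08 CPM under LPS and 21.3, 22.2 and 20.8 CPM under PBS. Atg4c fell to 19.4% of its PBS level in Fes-/- (log2 -2.36 ± 0.10, adjusted p = 3.01e-11) and to 18.7% in wild type (-2.42 ± 0.11, adjusted p = 2.6e-11). Atg4d, which removes ATG8 proteins from membranes, had 29.4, 31.5 and 27.5 CPM under LPS and 14.4, 14.4 and 13.8 CPM under PBS in Fes-/- libraries. Wild-type values for Atg4d were 27.9, 27.1 and 30.8 CPM under LPS and 12.8, 12.8 and 15.8 CPM under PBS. Atg4d was 2.07-fold higher in Fes-/- (log2 1.05 ± 0.10, adjusted p = 1.17e-07) and 2.07-fold higher in wild type (1.05 ± 0.10, adjusted p = 1.19e-07) under TMM, and was not called with library totals (0.12 in Fes-/- and 0.14 in wild type). Kri1 lies antisense to 19.3% of the exonic bases of Atg4d and its counts were 176% of those of Atg4d, so without a stated counting strand the Atg4d values are uncertain. The ratio of Atg4d to Atg4c was 10.7-fold higher under LPS in Fes-/- and 11.1-fold higher in wild type. Atg4a was higher by 0.43 ± 0.08 in Fes-/- and 0.43 ± 0.08 in wild type under TMM and lower with library totals, at -0.51 in Fes-/- and -0.48 in wild type. Atg4b, the most active family member, fell by 0.23 ± 0.08 on the log2 scale in Fes-/- (adjusted p = 0.0147) and fell by 0.22 ± 0.08 in wild type (adjusted p = 0.0174). The Atg4b call ended without Fes-/- PBS replicate 1 (adjusted p = 0.0913) or 3 (0.108), and in wild type without PBS replicate 2 (0.0524) or with RLE factors (0.0501).

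Within the ATG8 family, Gabarapl1 and Map1lc3b fell under every scaling, Gabarapl2 depended on it, and Gabarap and Map1lc3a were not called under TMM. Gabarapl1, an ATG8 protein of the GABARAP type, had 37.6, 38.4 and 40.4 CPM under LPS and 72.4, 63.5 and 97.4 CPM under PBS in Fes-/- libraries. Wild-type values for Gabarapl1 were 38.3, 43 and 35.6 CPM under LPS and 76.3, 107 and 86.2 CPM under PBS. Gabarapl1 fell to 49.9% of its PBS level in Fes-/- (log2 -1.0 ± 0.15, adjusted p = 3.97e-05) and to 43.3% in wild type (-1.21 ± 0.15, adjusted p = 7.04e-06). Map1lc3b, the gene of LC3B, the usual marker of autophagosomes, had 74, 70.3 and 73.6 CPM under LPS and 106, 97.6 and 122 CPM under PBS in Fes-/- libraries. Wild-type values for Map1lc3b were 69.4, 86.3 and 74.6 CPM under LPS and 101, 143 and 119 CPM under PBS. Map1lc3b fell to 67% of its PBS level in Fes-/- (log2 -0.58 ± 0.12, adjusted p = 0.000516) and to 63.6% in wild type (-0.65 ± 0.12, adjusted p = 0.000178). LPS and PBS libraries were apart for both, and wild-type PBS replicate 2 was the highest library for both. Gabarapl2, the gene of GATE-16, was higher by 0.53 ± 0.11 in Fes-/- and 0.54 ± 0.11 in wild type under TMM and lower with library totals, at -0.40 in Fes-/- and -0.37 in wild type. Gabarap, the most abundant family member per length, averaged 320 ± 16.4 CPM under LPS and 280.1 ± 31.2 CPM under PBS in Fes-/-, and 342 ± 17.5 CPM under LPS and 302 ± 7.77 CPM under PBS in wild type. Its log2 change was 0.19 ± 0.08 in Fes-/- (adjusted p = 0.0529) and 0.18 ± 0.08 in wild type (adjusted p = 0.0719). With the replicate number as a block Gabarap was called higher, with adjusted p = 0.0278 in Fes-/- and 0.045 in wild type, and with DESeq2 too (0.0113 in Fes-/- and 0.0275 in wild type), but with library totals it was lower, at -0.74 in Fes-/- and -0.74 in wild type. Map1lc3a, the gene of LC3A, was at 0.07 ± 0.19 in Fes-/- and -0.04 ± 0.19 in wild type under TMM, and was lower with library totals, at -0.86 in Fes-/- and -0.96 in wild type. Map1lc3b has a near-identical copy elsewhere, Gm6055 (99.7% identity over 378 bases), whose counts were 1.49% of those of Map1lc3b. Copies of Atg4a and Gabarapl2 elsewhere held at most 0.628% of their counts, and the antisense partners of Gabarapl1 and Sqstm1 0.114% and 0.623%.

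Per-length levels gave the make-up of each family within a library, a quantity that needs no scaling between libraries and that was added after the LPS effects had been seen. Under PBS the highest members by mean TPM were Gabarap (727 ± 52 in Fes-/- and 759.9 ± 22.4 in wild type), Sqstm1 (514 ± 29.9 and 507 ± 38.1) and Gabarapl1 (185 ± 34.4 and 207 ± 37.1). Under LPS the order was Sqstm1 (838 ± 25.7 in Fes-/- and 734 ± 93.5 in wild type), Gabarap (423 ± 24.9 and 447 ± 20) and Tax1bp1 (148 ± 27.9 and 178 ± 31.8). Optn was the 6th of 37 under LPS and the 32nd under PBS in both genotypes, and Nbr1 was the 24th under LPS in both, against the 5th in Fes-/- and the 4th in wild type under PBS. Atg16l2 was the lowest member in all 4 groups, at 1.7 ± 0.319 TPM in Fes-/- LPS libraries and 8.63 ± 0.487 TPM in wild-type PBS libraries.

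Gabarap held 78.3% ± 0.54 of the summed ATG8 TPM under LPS and 69.1% ± 2.1 under PBS in Fes-/-, and 78.6% ± 1.4 under LPS and 67.9% ± 2.6 under PBS in wild type. Gabarapl1 held 8.71% ± 0.39 under LPS and 17.4% ± 1.7 under PBS in Fes-/-, and 8.2% ± 0.31 under LPS and 18.4% ± 2.0 under PBS in wild type. Map1lc3b, the usual marker gene, held 4.35% ± 0.084 under LPS and 6.55% ± 0.23 under PBS in Fes-/-. That share rests on a summed exon length of 7517 bases for Map1lc3b, against 1844 for Gabarap and 2013 for Gabarapl1. By CPM, which takes no account of length, Map1lc3b came after Gabarap and before Gabarapl1 in all 4 groups, with means of 72.6 CPM for Map1lc3b and 38.8 CPM for Gabarapl1 in Fes-/- LPS libraries. Among the receptors Sqstm1 held 80.0% ± 3.0 under LPS and 71.0% ± 0.68 under PBS in Fes-/-, and 75.3% ± 5.3 under LPS and 69.9% ± 2.1 under PBS in wild type. Nbr1 held 0.97% ± 0.031 under LPS and 11.3% ± 0.14 under PBS in Fes-/-, and 1.04% ± 0.049 under LPS and 12.1% ± 1.1 under PBS in wild type. Of the ATG4 proteases, Atg4c held 7.08% ± 0.31 under LPS and 33.4% ± 0.57 under PBS in Fes-/-, and 7.35% ± 0.95 under LPS and 35.1% ± 1.5 under PBS in wild type. Atg4a held the largest share of that family under LPS, 43.9% ± 0.56 in Fes-/- and 43.7% ± 1.7 in wild type. LPS and PBS libraries did not overlap in these shares in either genotype, except for Sqstm1 in wild type, which held 69.3 to 79.4% under LPS and 68.1 to 72.1% under PBS. Among shares not given above, those of Map1lc3a, Atg4b, Atg2a and Atg2b overlapped between LPS and PBS in both genotypes. Those of Atg14 and Uvrag, taken as a pair, overlapped in Fes-/-. The shares are a description and were not tested.

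**Figure D3:**
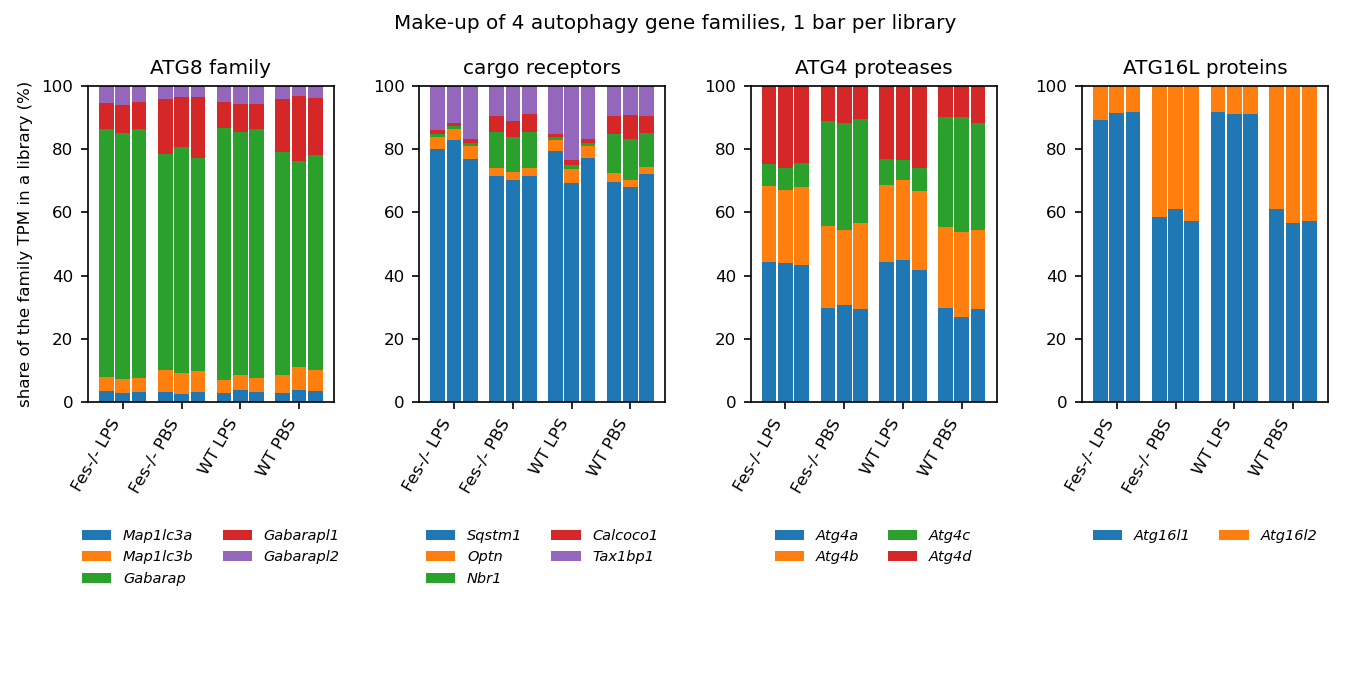
Share of each gene (colours) in the summed TPM of its family, in % (y axis, from 0), with 1 bar per library in the order Fes-/- LPS, Fes-/- PBS, wild-type LPS and wild-type PBS. In both genotypes every LPS bar shows a larger Gabarap, Atg4a and Atg16l1 part and a smaller Gabarapl1, Nbr1, Atg4c and Atg16l2 part than every PBS bar, while the Sqstm1 part of the LPS and PBS bars overlaps in wild type.

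Another 73 genes of the pathway outside the 37 were counted in 3 lists, and all 73 were tested. Under TMM 24 rose and 34 fell in Fes-/-, against 34.3% and 38.9% of all tested genes, and 23 rose and 36 fell in wild type, against 34.6% and 38.8%. Of the 24 upstream kinases and regulators, 9 rose and 10 fell in Fes-/-, and 9 rose and 12 fell in wild type. Tfeb, a transcription factor that drives lysosome and autophagy genes, averaged 1.07 ± 0.0808 CPM under LPS and 29.6 ± 2.92 CPM under PBS in Fes-/-, and 1.02 ± 0.246 CPM under LPS and 32.1 ± 1.55 CPM under PBS in wild type (log2 -4.79 ± 0.14 in Fes-/- and -4.97 ± 0.15 in wild type). Mitf, a relative of TFEB, moved the other way, with 269 ± 8.93 CPM under LPS and 51.5 ± 0.543 CPM under PBS in Fes-/-, and 272 ± 13.9 CPM under LPS and 54.4 ± 6.23 CPM under PBS in wild type (log2 2.39 ± 0.08 in Fes-/- and 2.32 ± 0.08 in wild type). Tbk1, the kinase that phosphorylates OPTN and p62, averaged 297 ± 4.8 CPM under LPS and 83.9 ± 2.85 CPM under PBS in Fes-/-, and 301 ± 6.15 CPM under LPS and 89.1 ± 4.55 CPM under PBS in wild type (log2 1.82 ± 0.07 in Fes-/- and 1.76 ± 0.07 in wild type).

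Of the 25 other genes of the phagophore and of membrane fusion, 9 rose and 14 fell in Fes-/-, and 9 rose and 14 fell in wild type. Plekhm1, an adaptor that brings autophagosomes to lysosomes, averaged 29.2 ± 0.246 CPM under LPS and 188 ± 4.48 CPM under PBS in Fes-/-, and 31.1 ± 2.5 CPM under LPS and 204 ± 17.7 CPM under PBS in wild type, and fell by 2.68 in Fes-/- and fell by 2.72 in wild type on the log2 scale. Vps18, a subunit of the HOPS tethering complex, fell by 1.85 in Fes-/- and fell by 1.72 in wild type. Rubcn, which restrains the UVRAG-bound PI3K complex, fell by 1.84 in Fes-/- and fell by 1.75 in wild type. Of the 24 other genes of selective autophagy, 6 rose and 10 fell in Fes-/-, and 5 rose and 10 fell in wild type. Irgm1, an interferon-inducible GTPase of pathogen control, rose by 3.89 ± 0.21 in Fes-/- and 3.92 ± 0.21 in wild type. Trim21, a cytosolic antibody receptor and ubiquitin ligase, rose by 4.35 ± 0.13 in Fes-/- and 3.75 ± 0.13 in wild type, with the counts of its partial copy Gm44075 at 2.45% of its own. Retreg3, a receptor for endoplasmic reticulum, fell by 1.76 in Fes-/- and fell by 1.79 in wild type. These 9 genes had the smallest p in wild type in their lists and kept their direction under every scaling. For all 73 genes, 7 were higher and 33 lower under every scaling in Fes-/-, against 15.3% and 36.5% of all tested genes, and 8 were higher and 34 lower in wild type, against 15.7% and 36.7%.

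**Figure D4:**
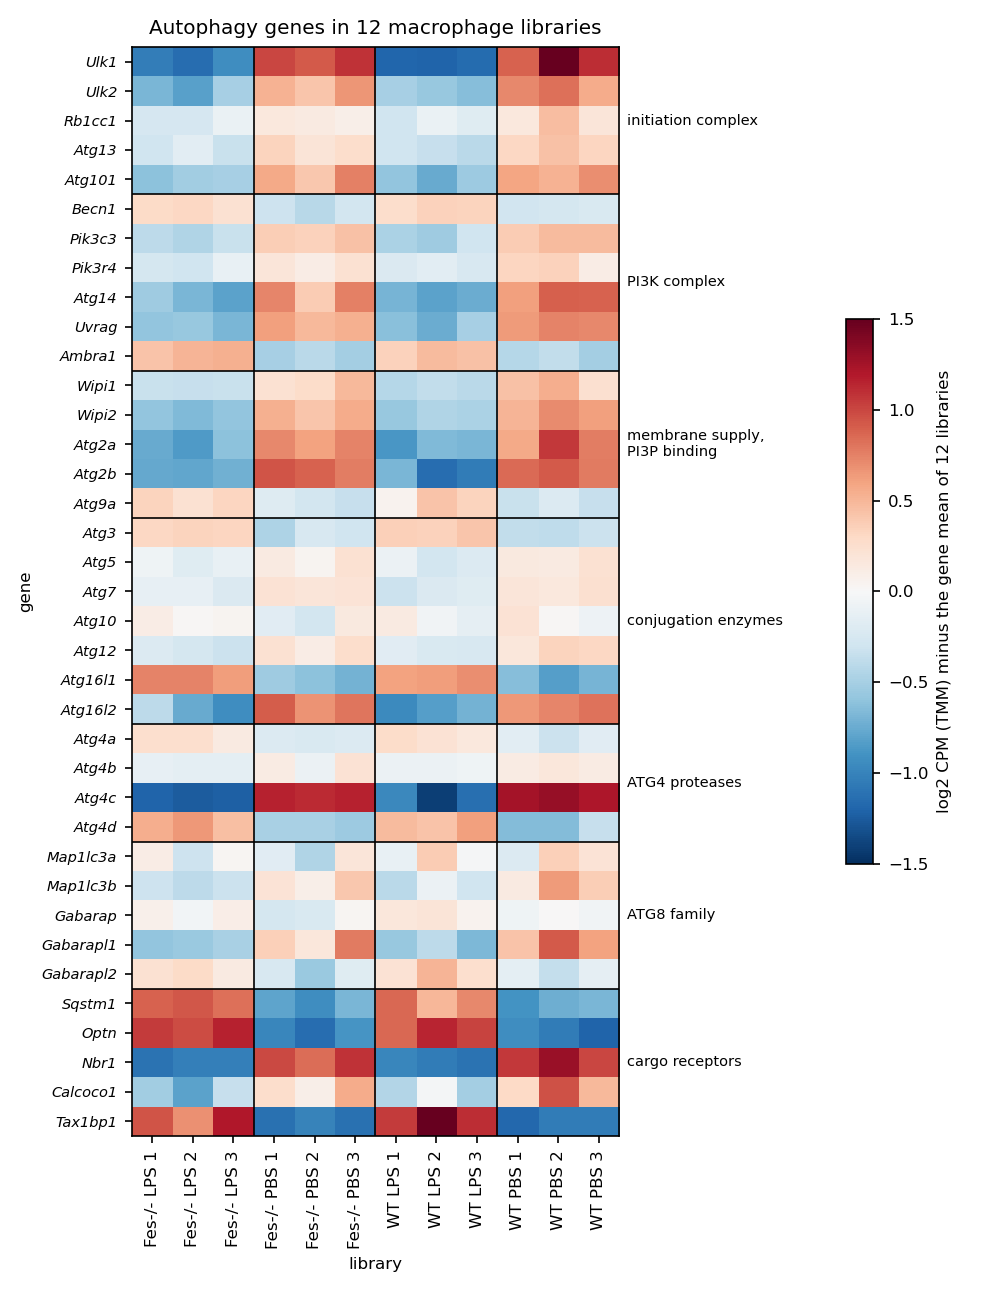
Log2 CPM after TMM, minus the mean of each gene over the 12 libraries (colour), for the 37 autophagy genes (rows, grouped by role) in the 12 libraries (columns). LPS and PBS libraries of both genotypes differ in most rows, and Fes-/- and wild-type libraries under the same treatment look alike.

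The next question was whether loss of Fes changed these genes at rest or under LPS. None of the 37 members was called between Fes-/- and wild type under PBS, where 13 of 15801 genes (0.0823%) were, or under LPS, where 17 (0.108%) were. At an unadjusted p under 0.05 edgeR had 0 members under PBS (3.83% of all genes) and 0 under LPS (6.52% of all genes). Without a filter it had 4 under PBS (Ulk1, Map1lc3a, Gabarapl1 and Calcoco1), against 5.41% of all genes. Under LPS it then had 3 (Sqstm1, Calcoco1 and Tax1bp1), against 6.93%, and none was called. DESeq2 called 0 members in both comparisons and had 1 under PBS, Uvrag, and 0 under LPS at an unadjusted p under 0.05. The 95% interval of every member lay within a 2-fold change in both comparisons. Under PBS the intervals ran from -0.70 (the lower bound of Calcoco1) to 0.32 (the upper bound of Atg16l2), and under LPS from -0.65 (Calcoco1) to 0.48 (Ulk1). Of the 73 other pathway genes edgeR called 0 by genotype under PBS and 0 under LPS, with 1 and 5 at an unadjusted p under 0.05, and DESeq2 called 1 and 0. The 1 gene was Trim21 on chromosome 7 (-0.56 ± 0.11, adjusted p = 0.162 in edgeR). A p above the threshold does not show that the genotypes have equal levels. The 3 members with the smallest p, named after their values were seen, were Uvrag (-0.16 ± 0.08, adjusted p = 0.975), Ulk2 (-0.17 ± 0.10, adjusted p = 0.975) and Rb1cc1 (-0.15 ± 0.09, adjusted p = 0.975) under PBS. Under LPS they were Tax1bp1 (-0.28 ± 0.13, adjusted p = 0.769), Atg2b (0.19 ± 0.11, adjusted p = 0.81) and Sqstm1 (0.18 ± 0.10, adjusted p = 0.81). All p-values here are edgeR's. With 1 library left out, Rb1cc1 ran from -0.22 to -0.06, Ulk2 from -0.25 to -0.11 and Uvrag from -0.21 to -0.14 under PBS, each nearest 0 without wild-type PBS replicate 2. Under LPS, Tax1bp1 ran from -0.41 to -0.11, Atg2b from 0.11 to 0.34 and Sqstm1 from 0.09 to 0.27, each nearest 0 without wild-type LPS replicate 2. None of these values was called, and every member's interval stayed within a 2-fold change with any library left out.

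The per-library values behind these comparisons overlapped for nearly all members. Under PBS, Uvrag had 50.5, 46.4 and 47.7 CPM in Fes-/- libraries, against 51.3, 55.3 and 54.4 CPM in wild-type libraries, and Atg4c had 19.9, 19.4 and 19.9 CPM in Fes-/- libraries, against 21.3, 22.2 and 20.8 CPM in wild-type libraries. These were the only 2 members whose libraries did not overlap under PBS, both lower in Fes-/-, and 6.82% of all genes did not overlap. Under LPS 5 members did not overlap (11.4% of all genes): Ulk1 and Wipi1 were higher in every Fes-/- library, and Wipi2, Atg3 and Atg4b were lower in every Fes-/- library. Ulk1 had 15.7, 14.6 and 16.9 CPM in Fes-/- LPS libraries, against 14.2, 14 and 14.5 CPM in wild-type LPS libraries. The members of negative sign numbered 27 of 37 under PBS, against 49.9% of all tested genes, and 23 to 32 over the alternatives, against 36.2 to 55.6% of all genes. Under LPS they numbered 19 of 37, against 50.3% of all genes. Wild-type PBS replicate 2 held the highest value of the 12 libraries for 16 of the 37 members, Ulk1, Atg14, Nbr1 and Gabarapl1 among them. Of the 6 PBS libraries it was the highest for 18 members, and for 26.1% of all tested genes. Without it 29 of the 37 members were of negative sign under PBS, against 54.1% of all genes. The members' median log2 genotype effect under PBS then moved nearer to 0, from -0.078 to -0.055. Without wild-type PBS replicate 1, 9 members had an unadjusted p under 0.05 (Ulk1, Rb1cc1, Atg14, Uvrag, Atg2a, Map1lc3a, Map1lc3b, Gabarapl1 and Calcoco1), all lower in Fes-/- and none called, against 8.22% of all genes in the same fit. Leaving out any other library gave at most 4 members under PBS, against 1.7 to 8.92% of all genes, and leaving out any library at most 3 under LPS and 2 for the interaction.

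**Figure D5:**
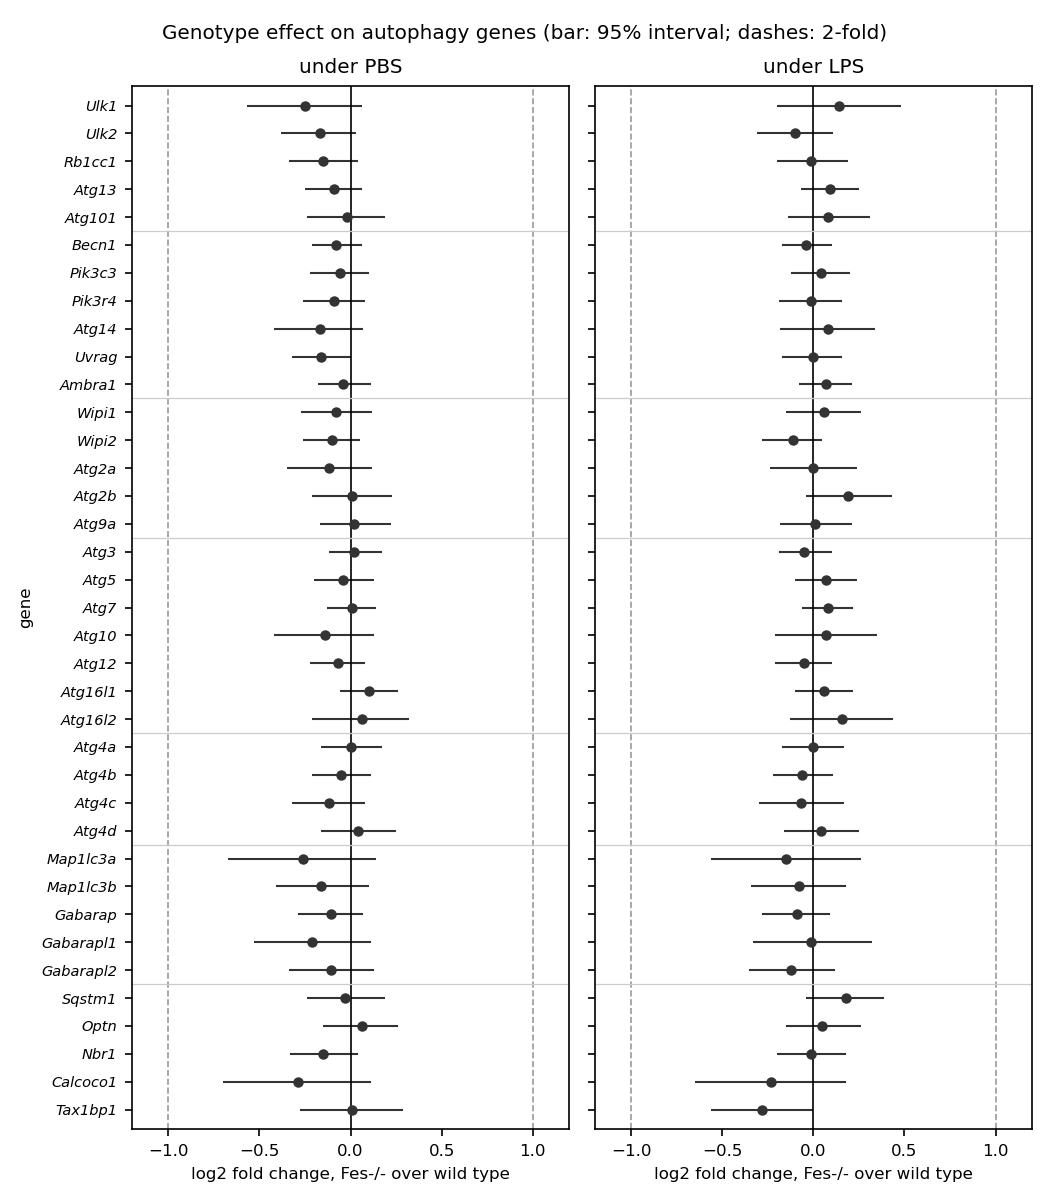
Log2 fold change of Fes-/- over wild type (x axis) under PBS and under LPS for the 37 autophagy genes (y axis), with 95% intervals from edgeR. Dashed lines mark a 2-fold change in either direction, and no interval reaches them.

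Fes lies on chromosome 7, and 2 members lie farther along it near genes that were called by genotype. Uvrag (GRCm38 chromosome 7, 98885021 to 99141141, minus strand) lies beside Dgat2, the gene of a triglyceride synthesis enzyme, which had log2 2.06 ± 0.23 in Fes-/- over wild type under PBS (adjusted p = 0.000476), and near Alg8, a glycosylation enzyme gene (-1.03 ± 0.11 under PBS, adjusted p = 4e-04). Under LPS Dgat2 was at 1.01 ± 0.21 and was not called (edgeR adjusted p = 0.165), and Alg8 was at -0.94 ± 0.11 (adjusted p = 0.000928). Tsku, which lies between Alg8 and Uvrag, was at 2.73 ± 0.27 under LPS (edgeR adjusted p = 0.000158). It was not called under PBS, at -0.39 ± 0.25. Atg16l2 (chromosome 7, 101263034 to 101302251, minus strand) lies near Inppl1, the gene of a lipid phosphatase (0.59 ± 0.09 under LPS, adjusted p = 0.0172). Uvrag was at -0.16 (interval -0.32 to 0.00) under PBS and Atg16l2 at 0.06 (-0.21 to 0.32), and neither was called under PBS or LPS.

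The LPS effects themselves were then compared between genotypes by the interaction term, the LPS effect in Fes-/- minus that in wild type. No member was called (3 of 15801 genes, 0.019%), and no member had an unadjusted p under 0.05 in edgeR (2.94% of all genes) or in DESeq2. Without a filter, edgeR had 1 such member, Ulk1, against 4.08% of all genes. The difference was 0.2 or less on the log2 scale for 32 of 37 members. The median size of the difference, without its sign, was 0.096 for members and 0.123 for all genes. The 3 smallest p-values were for Ulk1 (0.39 ± 0.21), Atg13 (0.18 ± 0.10) and Atg14 (0.26 ± 0.17), each with an adjusted p of 1 in edgeR. With 1 library left out Ulk1 ran from 0.14, without wild-type PBS replicate 2, to 0.57, without wild-type PBS replicate 1. Atg14 ran from 0.15, without Fes-/- PBS replicate 2, to 0.36, without wild-type PBS replicate 1, and Atg13 from 0.13 to 0.24. The falls in Ulk1, Atg13 and Atg14 were smaller in Fes-/- in these values, a difference that did not pass the test. The intervals of the differences ran from -0.69 (Tax1bp1) to 0.86 (Ulk1), all within a 2-fold difference. Of the 37 differences 27 were positive, against 50.2% of all tested genes. Each difference is also the genotype effect under LPS minus that under PBS. The members' median genotype effect was -0.0777 under PBS and -0.000695 under LPS. The positive signs therefore rest on the same PBS libraries as the negative signs under PBS and are not a separate result. Over the alternatives the positive members ran from 24, both with log2(TPM + 1), where 41% of all genes were positive, and without Fes-/- PBS replicate 2, where 52.4% were, to 35 with no filter, where 56.4% were.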

How the data were processed

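The deposited count table holds whole numbers per gene and library. The TPM table was also made by the authors, and all its columns have equal sums. The aligner STAR (2.7.8a), the tools Picard (2.9.0), R (4.1.12) and DESeq2 (1.34.0), and the builds GRCm38 and mm9, are named in the submitters' processing notes without their roles; the counting program and strand are not given in the sources used here. Gene lengths implied by counts over TPM lay within 1% of GENCODE M21 (GRCm38) exon lengths for 98.6% of 11353 genes, so positions were taken from M21.

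Members and lists were chosen with earlier results of these data known, and the family TPM shares were added after the LPS effects were seen. The main test was that of edgeR 4.0.16 under R 4.3.3, with filterByExpr, TMM factors, 4 group means, 8 residual degrees of freedom and a robust quasi-likelihood F test (two-sided), with Benjamini-Hochberg adjustment over 15801 genes and a threshold of 0.05. The 5 comparisons were LPS over PBS in each genotype, Fes-/- over wild type under each treatment, and the interaction. Genotype comparisons under PBS and LPS share libraries with the LPS comparisons. Per-library values are given for members with a log2 LPS effect of at least 0.58 in either genotype. In 3 further lists, the 3 genes with the smallest wild-type LPS p are named, with group means or log2 changes.

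Alternatives were DESeq2 1.42.0, RLE factors, library totals, no filter, 1 CPM in 3 libraries, limma-trend (limma 3.58.1) on log2(TPM + 1) and log2(TPM + 0.1), the 6 libraries of a comparison alone, the replicate number as a block, and each library left out in turn. The block was the number within a genotype for the LPS effects and the interaction. For the genotype comparisons it was the number across genotypes, a match that the labels do not state. Deviations over all genes gave, for same-numbered LPS and PBS libraries, r = 0.14, 0.17 and 0.14 in wild type (replicates 1, 2 and 3). In Fes-/- they gave r = 0.07, 0.09 and 0.19. Differently numbered pairs reached at most -0.04 in wild type and 0.06 in Fes-/-. However, Fes-/- PBS replicate 3 and wild-type PBS replicate 2, which cannot share a mouse, had r = 0.22. Values of this size cannot settle whether the numbers pair the libraries, and the main test used no pairing. Replicates differed widely in some members, such as Ulk1 in wild-type PBS libraries (77.1 ± 22.3 CPM, mean ± SD). The test was checked on simulated counts with known changes in 50 genes of each size. For genotype under PBS it recovered 10% of 1.25-fold, 56% of 1.5-fold, 88% of 2-fold and 100% of 4-fold changes. For LPS in wild type the shares were 16%, 54%, 84% and 100%. False calls were 2.31% and 4.51% of calls in that order. The changed genes were drawn from all genes above 1 CPM, and recovery at the members' levels was not measured separately. The LPS run of this check had 133 calls among 15801 genes, against 11601 called for LPS in wild type by the main test. Recovery with as many changed genes as under LPS was not tested. Genotype effects of the size seen in members could be missed. Copies were searched with BLAST 2.17.0 (97% identity over 200 bases), and figures drawn with matplotlib 3.10.9 in Python 3.11.15. Depth was 61016254 to 101027166 counts per library, and counting intervals and floors were not needed for these members.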

Additional observations from a re-analysis of the deposited data

How the results depend on the processing

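With library totals, log2(TPM + 1) and log2(TPM + 0.1), 4 members were higher in each genotype and 31 were lower. In that order, the log2 LPS effects that changed sign in Fes-/- were Becn1 -0.32, -0.36, -0.37, Atg9a -0.37, -0.39, -0.41, Atg3 -0.28, -0.31, -0.32, Atg4a -0.51, -0.53, -0.55, Gabarapl2 -0.40, -0.42, -0.43, Gabarap -0.74, -0.78, -0.78, Map1lc3a -0.86, -0.86, -0.89 and Atg10 -0.79, -0.77, -0.82. In wild type they were Becn1 -0.34, -0.36, -0.37, Atg9a -0.34, -0.36, -0.37, Atg3 -0.18, -0.21, -0.21, Atg4a -0.48, -0.48, -0.51, Gabarapl2 -0.37, -0.39, -0.40, Gabarap -0.74, -0.76, -0.77 and Ambra1 -0.05, -0.08, -0.08. Ambra1 in Fes-/- was at 0.03, -0.02, -0.02 and not called, nor was Atg4d. Dividing by library totals lowers all LPS effects by construction, and which scaling is nearer to the RNA per cell was not tested. Map1lc3a in wild type was 0.01 with RLE factors. With each library left out in turn, Map1lc3a ran from -0.04 to 0.26 in Fes-/- and from -0.21 to 0.10 in wild type, and Atg10 from -0.16 to 0.02 in wild type.

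Leaving out a library gave 11 to 12 members higher and 21 to 23 lower in Fes-/-, and 11 to 12 higher and 22 to 23 lower in wild type; the lost calls were those of Atg5 and Atg4b given above. The counts of all genes ran from 11014 to 11848 in Fes-/- and 11074 to 11743 in wild type for LPS, 12 to 15 for genotype under PBS, 12 to 19 under LPS and 2 to 3 for the interaction. DESeq2 called 33 genes by genotype under PBS, 38 under LPS and 5 for the interaction. Without a filter the counts were 315, 358 and 90 in that order, and the interaction had 6 genes with log2(TPM + 1) and 5 with log2(TPM + 0.1); the cause was not tested. None of these held a member. With the replicate block, edgeR called 12 members higher and 23 lower in each genotype, the addition being Gabarap, and 12 genes by genotype under PBS, 12 under LPS and 4 for the interaction, none a member; it changed no other member call. The lowest member averaged 7.44 CPM over the 12 libraries, so no member was near a count of 0.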
